A study of Mus musculus with 24 samples.

Results

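Messenger RNA of wild-type mouse primary chondrocytes was compared between 72 h and 36 h in untreated normal culture, in which the cells grew without fibroblasts and without IL-1β. The comparison used the 3 libraries labelled as normal culture without IL-1β at 72 h and the 3 so labelled at 36 h, 6 of the 24 libraries of the series, and was made gene by gene. The other 18 libraries came from chondrocytes of the same origin that shared transwell plates with primary dermal fibroblasts (co-culture), received IL-1β at 10 ng/ml, or both, at the same times. Both times are counted from the moment at which IL-1β was added to the treated cultures, 24 h after the cells had attached, so the untreated cells had been attached for that much longer. Set beside the comparison below are 2 pairs of those groups, untreated co-culture at 72 h against 36 h and IL-1β-treated normal culture at 72 h against 36 h. Cartilage was minced and digested with collagenase II and DNase I, and the cells were grown in DMEM/F12 with ITS and serum. The anatomical site of the cartilage, the age and sex of the animals, the cell density and the times of medium change are not stated in the labels. The labels do not say whether the 3 libraries of a group are separate cultures or animals. The p-values then measure only how far libraries of a group spread, pooled over all 24 libraries, and that spread may be technical.

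Chondrocytes secrete a matrix of type II collagen and aggrecan. When they are freed from that matrix and spread on plastic, they are known to begin dividing and to take up a fibroblast-like shape with more actin stress fibres and type I collagen. They also answer inflammatory signals through NF-kB and AP-1, factors that raise chemokines, acute phase proteins and matrix-degrading proteases. In the growth plate, chondrocytes that mature further make type X collagen and mineralization proteins.

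The deposited values are FPKM, fragments scaled to gene length and to all mapped fragments of a library, and they summed to 438242 to 446059 FPKM in the 6 libraries, with 11452 to 11607 genes at 1 FPKM or more. Read numbers are not known, and the values carry no counting intervals. Across genes, libraries of the same time correlated at 0.997 to 0.998 (Pearson r of log2 values) and libraries of different times at 0.961 to 0.968. Changes below are differences of log2(FPKM + 1), 72 h minus 36 h, with the standard error (SE) of limma. A gene is said to have risen or fallen at 72 h where its p, adjusted over the 12178 tested genes by the Benjamini-Hochberg method, was under 0.05. By that rule 58.4% of all tested genes changed, of which 4027 were higher (33.1% of those tested) and 3085 lower (25.3%). Most changes were small: the median was 0.03, and the 5th and 95th percentiles lay at -0.74 and 0.66. In 68.7% of genes the libraries of the 2 times did not overlap. A change of at least 1, which is 2-fold on the FPKM + 1 scale, was reached by 219 higher genes (1.8%) and 349 lower genes (2.87%). At this background a list with 50% of its members called is no result about that list. Lists are described here by counts and medians beside these shares, with no test of the list.

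The 8 chondrocyte markers summed to 969.5, 920.0 and 932 FPKM in the 72 h libraries, against 574, 549 and 576 FPKM in the 36 h libraries, and all 8 were detected at both times. Of the 8, 3 rose and 2 fell, with a median of -0.05. Col2a1, which encodes the chain of type II collagen, was at 768, 761 and 765 FPKM at 72 h and 309, 289 and 309 FPKM at 36 h (change 1.34 ± 0.05 (SE), limma adjusted p = 1.71e-15). All 3 libraries of 72 h were above all 3 of 36 h. The gain of Col2a1 in FPKM was larger than that of the whole marker sum. Acan, the aggrecan core protein, and Matn3, a matrilin, rose as well, by 0.85 and 0.90. Comp and Cnmd, a cartilage oligomeric matrix protein and an inhibitor of vessel growth, fell, with changes of -0.92 and -1.31. Sox9, the transcription factor that switches on Col2a1 and Acan, did not pass at -0.20 ± 0.09 (SE), and neither did Hapln1 or Col9a1. Sox9 and Hapln1 passed as lower in a fit of these 6 libraries alone (limma, adjusted p = 0.00798 for Sox9) and with median-of-ratios scaling of all libraries (0.0325 for Sox9 and 0.0309 for Hapln1), and Sox9 also without replicate 1 of 72 h.

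Levels of other cell types were read from marker lists, since cartilage pieces can carry neighbouring tissue. Skeletal muscle markers were lower at 72 h throughout: 17 of the 17 tested fell, 14 of them at least 2-fold, with a median of -1.85. Their summed level was 70.4, 71.5 and 61.8 FPKM at 72 h, against 440.5, 391 and 406 FPKM at 36 h, and the 2 ranges are far apart. The fast myosin light chain gene Mylpf was at 16.9, 15.6 and 11.5 FPKM at 72 h and 107, 96.4 and 98.6 FPKM at 36 h, a change of -2.71 ± 0.11 (SE). Myog, a transcription factor of differentiating muscle cells, was at 1.78, 1.64 and 1.35 FPKM against 8.21, 8.33 and 8.33 FPKM, and Des, the muscle intermediate filament desmin, at 2.29, 2.52 and 2.25 FPKM against 13.2, 12.2 and 11.9 FPKM. In both genes every library of 72 h was below every library of 36 h. The 4 untested muscle markers, Myh2, Myh4, Pax7 and Ttn, were at 0.12 FPKM or less in all 6 libraries.

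Macrophage markers went the other way. Of 14 tested, 13 rose, with a median of 0.80, and their sum was 135.5, 126 and 130.1 FPKM at 72 h, against 76.5, 67.4 and 66.9 FPKM at 36 h. Csf1r, the receptor through which macrophages are kept alive, was at 2.95, 3.56 and 3.24 FPKM in the 72 h libraries and 1.08, 0.79 and 0.81 FPKM in the 36 h libraries, and Fcer1g, a signalling chain of Fc receptors, at 4.94, 4.4 and 5.26 FPKM and 1.95, 1.48 and 1.72 FPKM. Neither gene's libraries overlapped between the times. Csf1, the macrophage growth factor that binds Csf1r, was at 234, 244 and 248 FPKM at 72 h and 116, 114 and 113 FPKM at 36 h, a rise of 1.08. Levels of the macrophage genes were low, the lysozyme gene Lyz2 apart (78, 70.4 and 70.7 FPKM against 46.9, 39.6 and 41.1 FPKM), and Ptprc, Cd163, Aif1 and Cd74 stayed under the 1 FPKM needed for testing.

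Of 16 dermal fibroblast markers, 11 fell and 1 rose (median -0.51), and their sum was 5399, 5256 and 5217 FPKM at 72 h, against 8796, 9063 and 8829 FPKM at 36 h. Many of these, among them Col1a1, Col3a1, Dcn and Lum, are also made by cells in and around cartilage. The remaining lists were low or mixed. Endothelial markers summed to 9.73, 9.2 and 9.24 FPKM at 72 h and 12.2, 12.3 and 11.5 FPKM at 36 h, neutrophil markers to 1.65, 2.68 and 1.49 FPKM and 2.04, 2.86 and 2.74 FPKM, and lymphocyte markers to under 1 FPKM at both times. Among adipocyte markers Fabp4, a fatty acid binding protein, was at 15.1, 12 and 15.1 FPKM against 80.5, 71 and 74.4 FPKM, with a change of -2.35, while Pparg rose by 0.74. In bulk samples fewer cells of a type and less RNA per cell cannot be told apart. The part that muscle, macrophage or fibroblast RNA had in the other results was not tested.

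**Figure D1:**
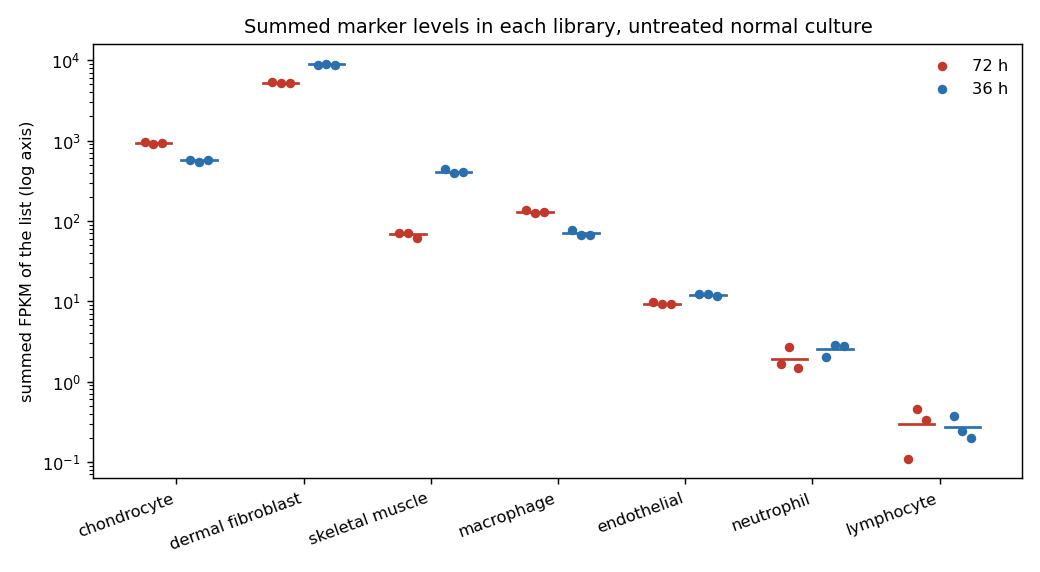
Summed FPKM of 7 cell type marker lists in each library (log axis), 72 h in red left of 36 h in blue, with points for libraries and lines for means of 3. Muscle and dermal fibroblast sums are lower at 72 h, chondrocyte and macrophage sums higher, and neutrophil and lymphocyte sums stay under 3 FPKM. The chondrocyte sum is higher through Col2a1.

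Acute phase and innate defence genes held some of the deepest falls at 72 h. Lcn2, a lipocalin that withholds iron from bacteria, was at 2.22, 2.46 and 3.05 FPKM at 72 h, against 191, 164 and 170.2 FPKM at 36 h (change -5.63 ± 0.12 (SE), limma adjusted p = 1.06e-19). Saa3, an inducible serum amyloid A, was at 2.34, 4.49 and 7.03 FPKM at 72 h and 115, 111 and 96.8 FPKM at 36 h (change -4.36 ± 0.18 (SE), limma adjusted p = 7.81e-15). In both genes the 72 h libraries lay far below the 36 h libraries, with a wider relative spread at 72 h. Haptoglobin (Hp) had 5.23, 2.79 and 4.61 FPKM at 72 h and 79.7, 78.8 and 85.9 FPKM at 36 h, and the metalloreductase Steap4 1.49, 0.56 and 0.83 FPKM and 43.2, 41.6 and 45.4 FPKM. Of 11 tested members of the list 7 fell, each more than 2-fold, and 0 rose. The others to fall were Chil1, a chitinase-like lectin, the copper oxidase Cp and the metal ion importer Slc39a14, with changes of -2.08, -1.89 and -1.34. The metallothionein genes Mt2 and Mt1, whose products bind zinc and copper, fell with them: Mt2 was at 66.3, 71.4 and 76.5 FPKM at 72 h and 383, 401 and 351 FPKM at 36 h, a change of -2.39, and Mt1 changed by -1.00.

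Positions of some of the genes described here are those of the whole protein-coding genes in GENCODE vM21 on GRCm38. Mmp3 (ENSMUSG00000043613) and Mmp13 (ENSMUSG00000050578) lie on the same chromosome, at chr9:7445822-7455975 and chr9:7272514-7283331, both on the plus strand. Lcn2 (ENSMUSG00000026822) spans chr2:32384633-32388252 on the minus strand, Angptl4 (ENSMUSG00000002289) chr17:33773750-33781830 on the minus strand and Sfrp2 (ENSMUSG00000027996) chr3:83766321-83774316 on the plus strand. Klk10 (ENSMUSG00000030693) spans chr7:43781035-43785410 on the plus strand and Perp (ENSMUSG00000019851) chr10:18845020-18857073 on the plus strand. Tnfrsf11b (ENSMUSG00000063727) spans chr15:54250619-54278484 and Tnfsf11 (ENSMUSG00000022015) chr14:78277445-78308043, both on the minus strand.

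**Figure D2:**
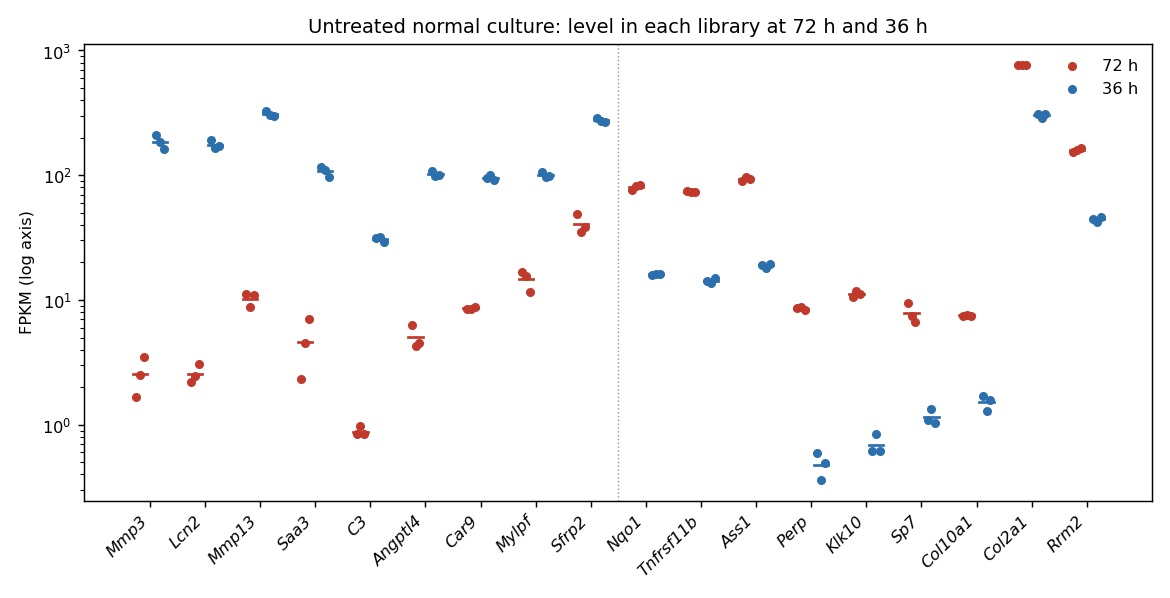
FPKM of 18 genes in each library (log axis), 72 h in red left of 36 h in blue; points are libraries and lines the means of 3. The 9 genes on the left are lower at 72 h and the 9 on the right higher, and in none do the libraries of the 2 times overlap.

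Complement genes fell for the most part. C3, on which all pathways converge, was at 0.84, 0.97 and 0.84 FPKM at 72 h and 31.7, 32.3 and 29.3 FPKM at 36 h (change -4.09 ± 0.07 (SE), limma adjusted p = 7.54e-21), and factor B (Cfb) at 2.62, 1.63 and 1.99 FPKM and 29, 29.4 and 29.3 FPKM. The proteases C1s1 and C1ra changed by -2.92 and -2.14, and C4b by -2.56. The inhibitors fell too, with -2.78 for Serping1, which blocks C1r and C1s, and -1.46 for Cd55, which speeds the decay of the convertases. The 3 members that rose were C1qa and the receptors C3ar1 and C5ar1, with changes of 0.49, 0.70 and 0.91 at levels under 3 FPKM. Macrophages are known to express these 3 genes, and the macrophage markers rose over the same interval as given above. Whether these 3 rises came from macrophage RNA was not tested. In all, 9 of 13 tested complement genes fell and 3 rose, with a median of -1.46.

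Of 24 tested inflammatory cytokine and chemokine genes, 15 fell and 4 rose (median -1.03). The neutrophil-attracting chemokine Cxcl5 had the highest level among them, 115, 94.4 and 103 FPKM at 72 h and 895, 794 and 893 FPKM at 36 h, with a change of -3.04 ± 0.09 (SE). Il6, a cytokine that drives acute phase genes, was at 4.14, 3.72 and 5 FPKM at 72 h and 37.7, 43.6 and 41 FPKM at 36 h (change -2.99 ± 0.10 (SE), limma adjusted p = 1.00e-16). No 72 h library reached a 36 h library for either gene. The monocyte-attracting chemokines Ccl2 and Ccl7 changed by -2.38 and -1.90, the neutrophil chemokine Cxcl1 fell to 28.7, 24.7 and 29 FPKM at 72 h, against 119, 109 and 109.7 FPKM at 36 h, and Cxcl12, which retains blood stem cells in marrow, by -1.68. The 4 that rose were Csf1, described above, the epithelial cytokine Tslp (0.59), and Lif and Il11 of the Il6 family (0.49 and 0.47). The call of Il11 was lost when replicate 1 or 3 of 72 h or any library of 36 h was left out, without a filter on low values and with median-of-ratios scaling. Tnf did not reach the level needed for testing.

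Genes of NF-kB signalling moved in the same direction. Among 21 subunit and feedback genes, 16 fell and 1 rose, with a median of -0.68. The inhibitor Nfkbia, itself a target that ends the response, was at 11.9, 13.1 and 13.2 FPKM at 72 h and 31.1, 32.4 and 32 FPKM at 36 h, a change of -1.26 ± 0.05 (SE). The nuclear cofactors Bcl3 and Nfkbiz changed by -1.50 and -1.35, the ribonuclease Zc3h12a by -1.42 and the adhesion molecule Vcam1 by -1.20. The subunits moved less: Nfkb1 and Relb fell by 0.41 and 0.90, while Rela and Rel did not pass. Il1r1, the signalling receptor of IL-1, was at 46.4, 42.4 and 40.6 FPKM at 72 h and 104, 107 and 105 FPKM at 36 h, with a change of -1.27. Its soluble antagonist Il1rn, at 141, 109 and 121 FPKM against 191, 170.4 and 179.7 FPKM, fell by 0.55.

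The promoters of 2 of these genes and of 2 protease genes are shown because known NF-kB and AP-1 motifs lie in them. The windows are the 250 bases before the RefSeq start of the gene on GRCm38.p6, and capitals mark the motifs: AP-1 (TGAGTCA, either strand) in Mmp3 at chr9:7445572-7445821 (+) and Mmp13 at chr9:7272264-7272513 (+), kappaB and AP-1 in Il6 at chr5:30012864-30013113 (+), and 2 overlapping kappaB matches, 1 on each strand, in Cxcl1 at chr5:90890995-90891244 (+).
Mmp3: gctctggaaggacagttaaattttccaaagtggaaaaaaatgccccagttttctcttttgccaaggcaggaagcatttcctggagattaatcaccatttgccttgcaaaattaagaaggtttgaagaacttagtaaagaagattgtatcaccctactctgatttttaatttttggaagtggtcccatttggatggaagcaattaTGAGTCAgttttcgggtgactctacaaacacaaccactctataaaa
Mmp13: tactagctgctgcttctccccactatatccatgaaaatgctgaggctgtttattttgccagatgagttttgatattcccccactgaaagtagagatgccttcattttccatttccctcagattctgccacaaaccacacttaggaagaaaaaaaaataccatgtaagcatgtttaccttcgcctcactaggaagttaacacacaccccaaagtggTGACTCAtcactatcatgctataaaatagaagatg
Il6: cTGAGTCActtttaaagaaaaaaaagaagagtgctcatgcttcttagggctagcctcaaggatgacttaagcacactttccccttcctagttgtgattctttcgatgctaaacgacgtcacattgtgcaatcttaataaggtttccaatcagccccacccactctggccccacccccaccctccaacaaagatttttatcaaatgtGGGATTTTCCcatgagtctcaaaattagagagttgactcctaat
Cxcl1: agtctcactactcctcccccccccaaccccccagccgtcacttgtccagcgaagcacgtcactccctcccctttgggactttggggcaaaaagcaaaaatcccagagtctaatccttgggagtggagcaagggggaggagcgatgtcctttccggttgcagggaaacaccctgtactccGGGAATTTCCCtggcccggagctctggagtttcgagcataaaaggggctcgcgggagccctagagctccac

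Motifs were counted on both strands in 300-base windows, from 250 before to 50 after the start, of the 7739 tested genes that had exactly 1 such window in RefSeq. The kappaB motif stood in 8 of 14 such windows of the cytokine and chemokine list and 7 of 14 of the NF-kB list, against 5.12% of all windows. In the other lists kappaB ran from 0 of 31 (replication genes) to 6 of 13 (MHC class I genes). It stood in 3 of 8 windows of epithelial junction and keratin genes, a list that mostly rose. AP-1 stood in 4 of the 14 cytokine windows and 2 of the 8 metalloproteinase windows, against 3.14% of all. Across the other lists its share ran from 0 of 31 (replication genes) to 4 of 11 (glutathione S-transferase genes). The AP-1 letters end 40 bases before the start of Mmp3 and 29 bases before that of Mmp13. A match describes letters and is not a measured binding site.

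Interferon-stimulated and antigen presentation genes were lower at 72 h. Of 21 tested interferon-stimulated genes, 15 fell and 1 rose (median -0.57), at modest levels: Isg15, a ubiquitin-like modifier, was at 2.59, 3.51 and 2.73 FPKM at 72 h and 6.66, 12.5 and 7.93 FPKM at 36 h, a change of -1.31 ± 0.23 (SE). Bst2, which tethers virus particles, changed by -1.06 and the transcription factor Irf7 by -0.81. Of 15 tested genes for MHC class I and peptide loading, 13 fell and 0 rose (median -0.67). B2m, the light chain of every class I molecule, was at 313, 325 and 364 FPKM at 72 h and 514, 478 and 499 FPKM at 36 h, and the heavy chain gene H2-K1 at 31.7, 29.2 and 31.1 FPKM and 65.4, 66.2 and 62.7 FPKM. Every 72 h library was below every 36 h library for both. Reads of the near-identical H2 genes can be split between them, so their single values are uncertain.

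Among 15 tested matrix metalloproteinases, 9 fell and 2 rose (median -0.46), and the falls were steep for 2 of them. Mmp3, the broad-specificity stromelysin 1, was at 1.67, 2.5 and 3.49 FPKM at 72 h and 211, 184 and 162 FPKM at 36 h (change -5.74 ± 0.15 (SE), limma adjusted p = 3.31e-18). Mmp13, the collagenase that cleaves type II collagen, was at 11.2, 8.74 and 10.9 FPKM and 329, 301 and 301 FPKM (change -4.79 ± 0.14 (SE), limma adjusted p = 1.42e-17). Neither gene's ranges came near each other. The gelatinase Mmp2 was more abundant and changed less, with 135, 123 and 128 FPKM at 72 h against 288, 289 and 285 FPKM at 36 h (-1.15). Mmp14, a membrane-bound activator of Mmp2, overlapped between the times at 252, 246 and 250.2 FPKM and 252, 258 and 250.4 FPKM. Of 11 tested ADAMTS genes 8 fell and 0 rose. The aggrecanases Adamts4 and Adamts5 changed by -0.91 and -0.99, and Adamts2, which trims procollagen, by -1.13. Protease inhibitors went both ways, with 9 of 15 lower and 4 higher. The serpin Serpina3n was at 7.56, 5.82 and 6.46 FPKM against 109, 106 and 99.4 FPKM and the leukocyte protease inhibitor Slpi at 3.81, 1.93 and 3.13 FPKM against 29.7, 25.2 and 26.4 FPKM, while Timp1, an inhibitor of most metalloproteinases, was at 717, 790.3 and 804 FPKM at 72 h and 459, 459 and 440.4 FPKM at 36 h. Timp3, a matrix-bound relative of Timp1, rose by 0.69.

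Matrix genes fell more often than they rose, though not as a block. Of 17 tested noncollagenous cartilage matrix genes 10 fell and 5 rose (median -0.39). Of 10 tested small leucine-rich proteoglycan genes 6 fell and 2 rose (median -0.43). Among 7 cartilage collagen genes 2 rose and 3 fell, the rise of Col2a1 standing beside falls of Col11a1, a partner in the same fibrils (-0.56), and of Col27a1 (-1.04). Col3a1, a collagen of loose connective tissue, had 789.9, 749 and 757 FPKM at 72 h and 2110.3, 2251 and 2125 FPKM at 36 h, a change of -1.50 ± 0.05 (SE). Col1a1 and Col1a2, the type I collagen chains, were at 1825, 1857 and 1780.3 FPKM and 1682, 1671 and 1654 FPKM at 72 h, against 2458, 2537 and 2474 FPKM and 2470.5, 2525 and 2459.8 FPKM at 36 h. All 3 genes fell without overlap, Col1a1 by 0.45. Of 19 fibril and network collagens outside cartilage, 12 fell and 5 rose; the basement membrane chains Col4a1 and Col4a2 were among those that rose (0.44 and 0.25). The small leucine-rich proteoglycans Lum and Dcn, which sit on collagen fibrils, were at 122, 86 and 105 FPKM and 109, 92.9 and 105 FPKM at 72 h and 469.8, 457 and 459 FPKM and 428, 441 and 434 FPKM at 36 h, both falling more than 4-fold. Bgn, their most abundant relative here, fell by 0.26. Of 19 collagen-modifying enzyme genes 12 fell, led by the lysyl hydroxylase Plod1 (-1.04), and Pcolce2, an enhancer of procollagen cleavage, was the single riser (1.39).

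Genes of maturation and mineralization were also divided, with 6 of 15 higher and 5 lower. Col10a1, the type X collagen of hypertrophic cartilage, was at 7.42, 7.63 and 7.5 FPKM at 72 h and 1.7, 1.3 and 1.59 FPKM at 36 h (change 1.75 ± 0.14 (SE), limma adjusted p = 3.91e-10). Sp7 (osterix), a transcription factor needed for bone formation, was at 9.55, 7.43 and 6.71 FPKM and 1.09, 1.33 and 1.04 FPKM (change 2.04 ± 0.08 (SE), limma adjusted p = 5.27e-15). Both genes were low at 36 h and higher in every 72 h library. Alpl, which frees phosphate, and Ank, which exports pyrophosphate, rose by 1.03 and 1.12. Ibsp, a bone sialoprotein, and Mgp, an inhibitor of calcification, fell, with changes of -1.17 and -0.45, and Spp1 (osteopontin), at 969, 961 and 1070.3 FPKM against 986, 893 and 876 FPKM, did not pass.

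Genes of prostaglandin and nitric oxide synthesis went both ways, with 4 of 15 higher and 4 lower. Ptgs2, the inducible cyclooxygenase, and Ptgs1, its constitutive relative, rose (1.24 and 0.80), while Ptges, the inducible enzyme that turns their product into prostaglandin E2, was at 12.4, 12.8 and 12.9 FPKM at 72 h and 23.7, 23.3 and 22.7 FPKM at 36 h (change -0.82). Nos2, the inducible nitric oxide synthase, was low at both times, with 0.05, 0.09 and 0.16 FPKM at 72 h and 1.28, 1.37 and 1.37 FPKM at 36 h (change -1.09). Of 12 tested genes of the IL-1 family and its receptors 8 fell and 2 rose; Il33 (-1.31) fell furthest, and Il1a was at 0.24 FPKM or less in all 6 libraries. At the surface of cartilage, Prg4 (lubricin), the lubricant of joints, was at 49.3, 51.1 and 51 FPKM at 72 h and 32.8, 28.1 and 30.2 FPKM at 36 h, a rise of 0.72. Its list of lubricin, hyaluronan and surface zone genes was divided, with 4 of 10 tested higher and 4 lower (median -0.03). The mean sum of that list was lower at 72 h, 341 FPKM against 605 FPKM at 36 h.

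Osteoprotegerin and its target moved in opposite directions. Tnfrsf11b, the decoy receptor that blocks osteoclast formation, was at 74.3, 73.4 and 73.9 FPKM at 72 h and 14.1, 13.6 and 15.1 FPKM at 36 h (change 2.29 ± 0.08 (SE), limma adjusted p = 1.88e-16). Tnfsf11 (RANKL), the ligand it captures, was at 5.32, 4.54 and 6.09 FPKM at 72 h and 29.9, 31.8 and 30.6 FPKM at 36 h (change -2.34 ± 0.09 (SE), limma adjusted p = 4.21e-15). On the FPKM scale, which is per gene length, the decoy was above the ligand in 3 of 3 libraries at 72 h and below it in 3 of 3 at 36 h. Of 12 tested genes of the receptor family and of osteoclast control, 5 rose and 4 fell.

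Division genes were higher at 72 h almost without exception. Of 55 mitosis and G2/M genes 54 rose and 0 fell, 32 of them at least 2-fold, with a median of 1.04. Pttg1 (securin) was the one that did not pass, at 20.4, 18.8 and 18.3 FPKM against 21.6, 22.1 and 16.7 FPKM; without replicate 3 of 36 h it passed as lower. Cdc20, which starts the separation of chromosomes, was at 68.8, 69.7 and 69.8 FPKM at 72 h and 29.1, 27.5 and 29.3 FPKM at 36 h (change 1.25 ± 0.09 (SE), limma adjusted p = 1.77e-10), and Cdk1, the kinase of mitotic entry, at 30.9, 32.1 and 33.9 FPKM and 18.5, 16.5 and 17.1 FPKM. The proliferation marker Mki67 was at 40.4, 45.2 and 43.9 FPKM at 72 h and 19.6, 20.8 and 21.7 FPKM at 36 h, with a change of 1.03. The 72 h libraries were above the 36 h libraries in each of these 3. Summed over the list, the level was 1898, 2032 and 2007 FPKM at 72 h and 982, 908 and 961 FPKM at 36 h.

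DNA replication genes followed with a smaller shift. Of 43 tested, 42 rose and 0 fell, with a median of 0.74. Rrm2, the small subunit of the enzyme that makes deoxynucleotides, had the largest change, 154, 159 and 165 FPKM at 72 h against 44.6, 42 and 46 FPKM at 36 h. Mcm5, a subunit of the replicative helicase, was at 26.2, 25.9 and 28.3 FPKM and 11.6, 10.9 and 11.8 FPKM (change 1.16 ± 0.12 (SE), limma adjusted p = 1.81e-08), and Pcna, the clamp that holds the polymerase, at 152, 162 and 180.4 FPKM and 103, 94.2 and 99.6 FPKM. No library of 36 h reached the 72 h range in any of the 3. Rfc1, a clamp loader subunit, did not pass.

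Promoters of 3 of these genes are shown for the motifs through which the cell cycle is known to time transcription: E2F sites for replication genes, and the CHR element with CCAAT boxes for mitosis genes. Capitals mark the E2F matches in Mcm5 at chr8:75109259-75109508 (+), and the CHR and CCAAT matches in Cdc20 at chr4:118437344-118437593 (-) and Cdk1 at chr10:69352913-69353162 (-). Each is the RefSeq window of 250 bases before the start on GRCm38.p6, written along the strand of the gene.
Mcm5: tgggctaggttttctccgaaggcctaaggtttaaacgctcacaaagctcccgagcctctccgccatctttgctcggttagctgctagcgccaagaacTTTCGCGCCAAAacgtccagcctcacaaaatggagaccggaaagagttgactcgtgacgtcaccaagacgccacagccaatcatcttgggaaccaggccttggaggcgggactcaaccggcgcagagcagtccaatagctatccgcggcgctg
Cdc20: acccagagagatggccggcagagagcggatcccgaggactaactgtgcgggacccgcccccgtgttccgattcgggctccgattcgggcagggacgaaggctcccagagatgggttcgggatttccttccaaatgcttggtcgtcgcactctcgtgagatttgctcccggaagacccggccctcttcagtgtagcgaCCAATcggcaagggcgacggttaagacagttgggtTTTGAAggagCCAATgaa
Cdk1: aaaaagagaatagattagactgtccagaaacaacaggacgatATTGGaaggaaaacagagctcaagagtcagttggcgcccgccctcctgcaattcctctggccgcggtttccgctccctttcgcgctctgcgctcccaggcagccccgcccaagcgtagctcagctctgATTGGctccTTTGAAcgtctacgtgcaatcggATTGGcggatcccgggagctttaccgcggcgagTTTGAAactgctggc

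The CHR letters (TTTGAA, either strand) stood in 30 of 42 mitosis windows, 4 of 31 replication windows and 11.9% of all 7739. CCAAT stood in 28 of the 42 mitosis windows, 20 of the 31 replication windows and 40.0% of all. In the other lists CCAAT ran from 0 of 6 (ADAMTS genes) to 14 of 15 (cholesterol genes), so it was not particular to division genes. An E2F match (TTTGGCGC, TTTCGCGC, TTTCCCGC or TTTGCCGC, either strand) stood in 10 of 31 replication windows, 4 of 42 mitosis windows and 4.5% of all. In Mcm5 the 2 matches overlap and lie on opposite strands. The 2 lists thus differed in their CHR and E2F shares, while their CCAAT shares were alike (66.7% of mitosis and 64.5% of replication windows). Both lists moved in the same direction between the times.

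Brakes of the cycle did not move as 1 group. Cdkn1c (p57), an imprinted inhibitor that chondrocytes make when they leave the cycle, was at 16.2, 11.1 and 12.4 FPKM at 72 h and 74.8, 78 and 70.7 FPKM at 36 h (change -2.42 ± 0.11 (SE), limma adjusted p = 1.54e-14). Cdkn1a (p21), a p53 target, was at 175, 179 and 178 FPKM and 108, 92.1 and 99.5 FPKM (change 0.82 ± 0.08 (SE), limma adjusted p = 8.71e-09). All 36 h libraries were higher for Cdkn1c and lower for Cdkn1a. Ccnd1, the cyclin that carries growth signals into the cycle, rose by 1.27, while Myc overlapped between the times. Of 24 p53 targets 18 rose and 4 fell (median 0.68). Mdm2, the ligase that degrades p53, was at 47, 51.2 and 49.7 FPKM at 72 h and 24.3, 23.2 and 23.9 FPKM at 36 h, and Ccng1 at 179, 176 and 182 FPKM and 76.9, 69.9 and 76.2 FPKM. The death-related targets Bax and Pmaip1 rose by 0.75 and 1.09, and the secreted factor Gdf15 by 1.72. Fas, a death receptor, and Ddb2, a repair gene, fell, with -1.24 and -0.78.

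Hypoxia-induced genes were lower at 72 h. Of 24 tested targets of the hypoxia-inducible factor (HIF), 20 fell and 2 rose, with a median of -0.76. Car9, a carbonic anhydrase that serves as a marker of low oxygen, was at 8.42, 8.41 and 8.86 FPKM at 72 h and 94.8, 100.1 and 91.3 FPKM at 36 h (change -3.33 ± 0.12 (SE), limma adjusted p = 8.70e-16). Angptl4, a secreted inhibitor of lipoprotein lipase that PPAR factors also raise, was at 6.27, 4.28 and 4.52 FPKM and 108, 98.9 and 101 FPKM (change -4.12 ± 0.10 (SE), limma adjusted p = 2.32e-18). For both, the 72 h range lay entirely below the 36 h range. Egln3, the prolyl hydroxylase that HIF itself induces, changed by -2.06, the mitophagy gene Bnip3 by -0.89 and Vegfa by -0.40. Glycolysis genes shifted less: 14 of 25 fell and 0 rose (median -0.30). Pgk1 was at 606, 592 and 575 FPKM at 72 h and 838, 839.8 and 831 FPKM at 36 h, whereas Ldha, at 906, 887 and 942 FPKM and 994, 908 and 922 FPKM, overlapped. The hypoxia response element (ACGTG or GCGTG) stood in 14 of 16 HIF target windows and in 64.9% of all windows. Across the other lists its share ran from 0 of 8 (acute phase genes) to 9 of 9 (cycle brakes), so it was not particular to HIF targets.

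NRF2 targets, which defend against oxidants, rose in 23 of 28 cases and fell in 1 (median 0.48). Nqo1, a quinone reductase, was at 76.1, 82.1 and 84 FPKM at 72 h and 15.9, 16.2 and 16.2 FPKM at 36 h (change 2.25 ± 0.04 (SE), limma adjusted p = 2.43e-20). Txnrd1, the thioredoxin reductase, was at 76.2, 80.7 and 81.3 FPKM and 37.8, 38.8 and 39.3 FPKM. Both were higher in every 72 h library. The 2 subunits of the enzyme that limits glutathione synthesis, Gclc and Gclm, rose by 0.99 and 0.86, and the haem oxygenase Hmox1 by 0.83. Fth1, the ferritin heavy chain, was the member that fell (-0.22), a call lost without replicate 2 of 72 h or replicate 1 of 36 h, although the light chain Ftl1 rose to 2303, 2424 and 2522 FPKM at 72 h, against 1434, 1448 and 1377 FPKM at 36 h. The antioxidant response element (TGACNNNGC) stood in 5 of 16 windows of these targets and 14.7% of all. Across the other lists its share ran from 0 of 8 (acute phase genes) to 4 of 8 (metallothionein and zinc genes).

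Cholesterol synthesis and uptake genes rose in 22 of 25 cases and fell in 0, by small steps (median 0.36). Fdps, which makes farnesyl diphosphate, was at 88.5, 78.3 and 89.1 FPKM at 72 h and 61.7, 52.1 and 59 FPKM at 36 h, and the libraries of the 2 times did not overlap. Chaperone and proteasome genes behaved alike, with 22 of 25 higher and 0 lower (median 0.38), among them Hsp90aa1 (0.71) and the small heat shock gene Hspb1 (0.92). Cytosolic ribosomal protein genes were called lower in 18 of 64 and higher in 0, a share near that of all genes, and in 32 of 64 with median-of-ratios scaling.

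Growth factor systems were lower on the IGF side. Of 17 tested IGF genes 13 fell and 1 rose (median -0.42). Igfbp3, a carrier of IGFs, was at 12.9, 10.5 and 11.9 FPKM at 72 h and 92.9, 76.4 and 85.7 FPKM at 36 h (change -2.75 ± 0.07 (SE), limma adjusted p = 5.20e-18), and the ligand Igf1 at 11.2, 9.73 and 10.6 FPKM and 40.4, 39.2 and 39.5 FPKM (-1.82). Igf2, the imprinted fetal ligand, was at 852, 834 and 783 FPKM at 72 h and 2075, 2092 and 1988 FPKM at 36 h (-1.32). No 72 h library reached the 36 h range in these 3. Other paternally expressed growth genes fell as well, Mest to 452, 334 and 365 FPKM at 72 h, against 1188, 1131 and 1173 FPKM at 36 h, and Peg3 by 1.00, while Dlk1 rose by 1.34.

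Of 23 tested WNT genes 14 were called lower and 6 higher (median -0.32). The secreted antagonist Sfrp2 was at 48.7, 35 and 38.6 FPKM at 72 h and 287, 271 and 269 FPKM at 36 h (change -2.74 ± 0.10 (SE), limma adjusted p = 2.74e-16). The R-spondins Rspo2 and Rspo3, which strengthen WNT signals, changed by -1.25 and -1.32. Their receptors split, with Lgr5 at -0.94 and Lgr6 at 1.47. In the TGF-beta and BMP list 17 of 35 rose and 12 fell (median 0.14). The direct BMP targets Id1 and Smad6 were among the rises: Id1 was at 71.7, 61.2 and 69.8 FPKM at 72 h and 21.6, 22.9 and 21.1 FPKM at 36 h, and Smad6 at 28.6, 32.2 and 32.1 FPKM and 11.2, 11.3 and 11.6 FPKM. Both showed no overlap. The BMP antagonist Nog rose by 1.57, the activin subunit Inhba by 1.27 and the TGF-beta target Ccn2 by 1.05, while the receptor Tgfbr3 fell (-1.35).

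Ligands and receptors of growth factor kinases were mixed, with 8 of 28 higher and 13 lower. Hbegf, a ligand of the EGF receptor, was at 14.2, 19.2 and 19.1 FPKM at 72 h and 5.68, 5.45 and 5.35 FPKM at 36 h, while Egfr itself fell (change -0.68). Fgfr3, the receptor that restrains growth plate chondrocytes, was at 2.8, 2.41 and 2.51 FPKM at 72 h and 0.76, 0.72 and 0.83 FPKM at 36 h, a change of 1.01, and Pdgfra, a receptor typical of mesenchymal progenitors, at 48.4, 45.5 and 48.2 FPKM and 93.1, 101 and 98 FPKM, a change of -1.02. The FGF ligands Fgf5, Fgf10 and Fgf7 fell (-1.54, -0.99 and -0.62) and Fgf2 rose (0.75).

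Receptors for the matrix went both ways. Of 24 tested integrin and adhesion genes 11 rose and 9 fell. Itga3, a laminin receptor chain, was at 11.4, 12.9 and 11.6 FPKM at 72 h and 2.23, 2.16 and 2.27 FPKM at 36 h (change 2.01 ± 0.06 (SE), limma adjusted p = 3.35e-17), and Cd44, the main receptor of hyaluronan, at 118, 126 and 131 FPKM and 53, 55.3 and 54.8 FPKM. The laminin receptor chain Itga6 rose by 1.09. Itga11, a receptor of fibrillar collagen, was at 18.6, 18.5 and 18.4 FPKM at 72 h and 45.8, 46.5 and 45.5 FPKM at 36 h, and Itga10, the collagen receptor chain of chondrocytes, changed by -0.44. Itga3 and Cd44 were higher in every 72 h library and Itga11 lower. Among elastic fibre genes 10 of 20 fell and 4 rose, from -1.87 for the microfibril protein Mfap4 to 1.30 for Ltbp1, which anchors latent TGF-beta.

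Among the most abundant messages the changes were moderate. Ftl1, given above, had the largest gain in FPKM. Thbs1 (thrombospondin 1), an adhesive glycoprotein, was at 1932, 2105 and 2054 FPKM at 72 h and 1241, 1244 and 1322 FPKM at 36 h, and Vim, the intermediate filament vimentin, at 2184, 2169 and 2156 FPKM and 1637, 1524 and 1564 FPKM. The calcium-binding S100 genes S100a6 and S100a4 rose by 1.14 and 1.13, and the cytoplasmic actin Actg1 by 0.43. After Col3a1 and Igf2 the largest loss in FPKM was that of Eef1a1, the elongation factor that brings transfer RNA to the ribosome, at 6112, 6083 and 6161 FPKM at 72 h and 7214, 7102 and 7156 FPKM at 36 h (change -0.23; a call lost without a filter on low values). Itm2a, a membrane protein linked to cartilage development, fell to 364, 314 and 334 FPKM at 72 h, against 1108, 1141 and 1102 FPKM at 36 h. The libraries of the 2 times did not overlap for Thbs1, Vim, Eef1a1 or Itm2a.

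Contractile genes of smooth muscle and myofibroblasts rose in 18 of 21 cases and fell in 3 (median 0.56). Acta2, the smooth muscle actin, was at 1078, 1266 and 1168 FPKM at 72 h and 580.3, 575 and 569 FPKM at 36 h (change 1.02 ± 0.10 (SE), limma adjusted p = 2.48e-08). Tagln, an actin-binding protein of the same cells, was at 488, 565 and 532 FPKM and 199.7, 199.5 and 207 FPKM, and Cnn1 (calponin) at 67.3, 70.5 and 67.6 FPKM and 21.7, 18.9 and 21.8 FPKM. The 36 h libraries were lower for all 3. Des, which fell, also stands on the skeletal muscle list, all of whose tested members fell.

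The steepest rises were in genes best known from epithelia. Klk10, a secreted kallikrein-type protease, was at 10.6, 11.9 and 11.2 FPKM at 72 h and 0.62, 0.84 and 0.62 FPKM at 36 h (change 2.85 ± 0.12 (SE), limma adjusted p = 5.22e-15). Perp, a p53 target that is part of desmosomes, was at 8.59, 8.78 and 8.26 FPKM and 0.59, 0.36 and 0.49 FPKM (change 2.69 ± 0.12 (SE), limma adjusted p = 9.86e-15), and Gjb2 (connexin 26), a gap junction channel, at 14.1, 22.2 and 22.1 FPKM and 2.22, 2.16 and 2.54 FPKM. All 3 were under 3 FPKM in every 36 h library and several times higher in every 72 h library. Other genes with large rises were Ass1, which makes the precursor of arginine (89.4, 96 and 92.8 FPKM against 19.2, 17.9 and 19.6 FPKM), the water channel Aqp5 (2.10), the hormone gene Cck (2.17) and the platelet chemokine Ppbp (2.05). Of 15 tested epithelial junction and keratin genes 11 rose and 2 fell (median 0.70), but the list was drawn up with these rises known. Defining genes of epithelia on it were at or near 0: Cdh1, Epcam and Dsp were at 0.12 FPKM or less in all 6 libraries.

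**Figure D3:**
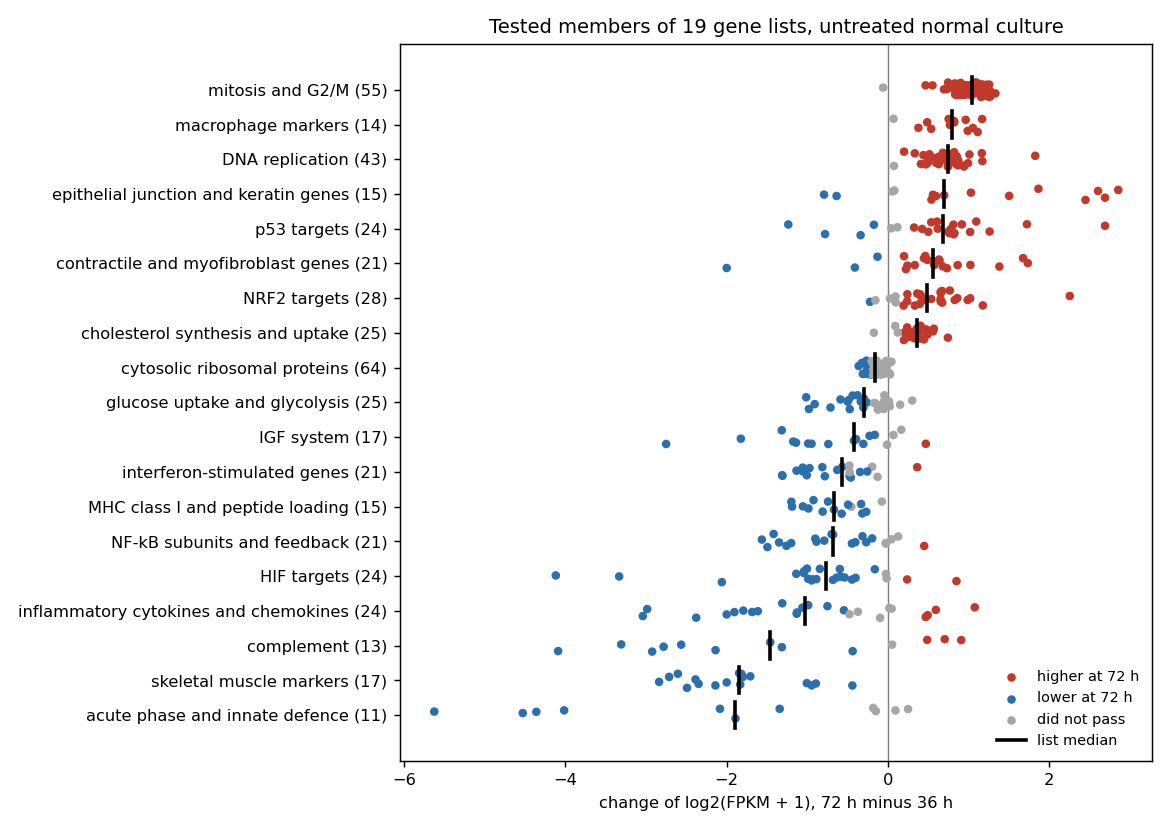
Change of log2(FPKM + 1), 72 h minus 36 h, for each tested member of 19 gene lists, ordered by median (black bars; number of tested members in brackets). Red points are higher at 72 h, blue points lower and grey points did not pass; mitosis and replication genes sit mostly to the right of 0 and muscle, acute phase and complement genes mostly to the left.

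The same interval was then set beside that in untreated co-culture, in which dermal fibroblasts grew in the transwell insert. The 2 comparisons share no library. In co-culture 61.5% of genes changed, 4452 higher (36.6%) and 3032 lower (24.9%). Across the 12178 genes the changes correlated at a Pearson r of 0.911 and a Spearman rho of 0.864, a description in which genes are not independent replicates. Of the genes higher in normal culture 82.3% were also higher in co-culture (74.4% of the co-culture list), and of the lower ones 76.5% were also lower (77.8%). Of the 568 genes with a change of at least 2-fold in normal culture, 556 were called in the same direction in co-culture and 5 in the opposite one. Mmp3 changed by -5.74, Lcn2 by -5.63 and Rrm2 by 1.83 in normal culture, against -5.58, -5.79 and 1.62 in co-culture.

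The difference between the 2 changes was tested gene by gene. It passed for 605 genes (4.97%), of which 269 had a more positive change in normal culture (2.21% of those tested) and the others a more negative one (2.76%). Fitted on the compared groups alone it passed for 861 and 1194 genes, and without single libraries the negative count fell as low as 199. The excess of negative differences was not kept with median-of-ratios scaling (278 more positive and 269 more negative). On TPM the counts were near equal, at 232 and 239. Immediate early genes, which encode short-lived transcription factors and feedback proteins switched on within minutes of a stimulus, were counted in this test: 20 of 24 had a more positive change in normal culture and 0 a more negative one, and 16 to 21 had a more positive one under the alternatives. In normal culture 15 of them rose and 3 fell (median 0.24), whereas in co-culture 0 rose and 17 fell (median -0.31).

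Fos, a component of AP-1, was at 25.1, 25 and 26.4 FPKM at 72 h and 8.33, 9.48 and 9.14 FPKM at 36 h in normal culture, and at 25.8, 25.8 and 26.2 FPKM at 72 h and 32.9, 33 and 33 FPKM at 36 h in co-culture (difference 1.75 ± 0.08 (SE), limma adjusted p = 6.84e-13). Its level was lowest in the 36 h libraries of normal culture, and the 72 h libraries of the 2 cultures lay within 2 FPKM of each other. Egr1 and Dusp1, a growth-response transcription factor and a phosphatase that shuts off MAP kinases, were likewise lowest in normal culture and highest in co-culture at 36 h, with differences of 1.74 and 1.60. Ptgs2, the inducible cyclooxygenase, was at 43.5, 52.5 and 54.1 FPKM at 72 h and 19, 21.4 and 21.2 FPKM at 36 h in normal culture, against 46, 51.5 and 52.4 FPKM and 97.3, 95.6 and 94.2 FPKM in co-culture (difference 2.17 ± 0.23 (SE), limma adjusted p = 1.90e-06). It rose in one culture and fell in the other. For Nr4a1, an orphan nuclear receptor, the libraries of normal culture overlapped, with 23.2, 26.4 and 23.4 FPKM at 72 h and 19.9, 23.2 and 21.5 FPKM at 36 h, against 18.3, 20.4 and 20.7 FPKM and 70.8, 71.4 and 74.7 FPKM in co-culture (difference 1.98). Its small rise in normal culture (0.17) was not called without replicate 2 of 72 h or replicate 1 of 36 h, nor with median-of-ratios scaling. Among ERK feedback genes 5 of 16 had a more positive change in normal culture and 0 a more negative one, led by Dusp5 (1.25) and the EGF-receptor ligand Ereg (1.12). The cytokine gene Lif (1.55) and the keratin Krt19 (1.52) were further genes with large positive differences.

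**Figure D4:**
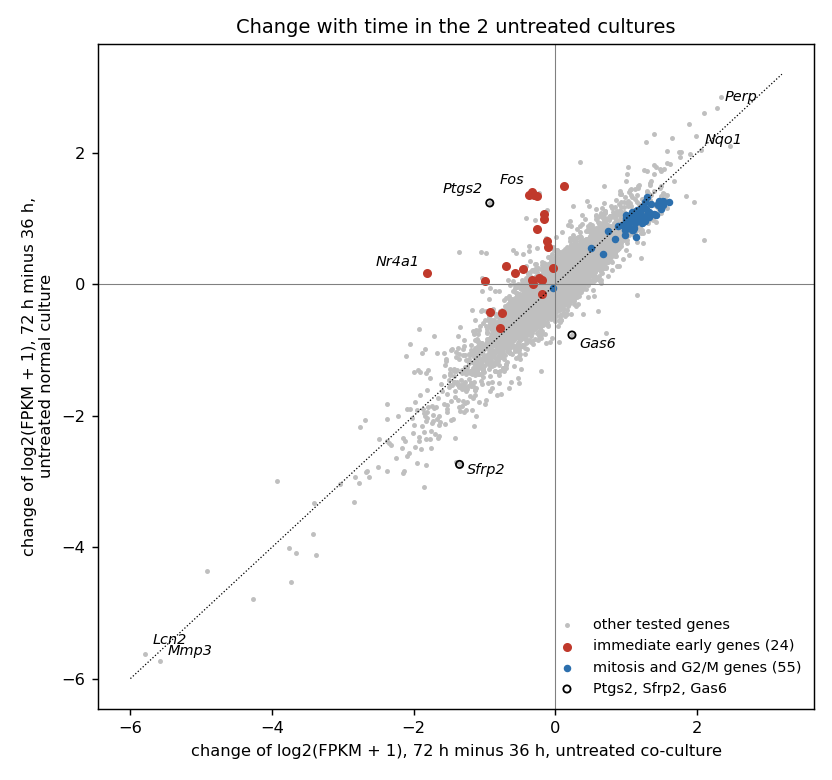
Change of log2(FPKM + 1), 72 h minus 36 h, of each tested gene in untreated normal culture (vertical) and untreated co-culture (horizontal); the dotted line marks equal changes and open circles 3 further named genes. Most genes lie along the line (r = 0.911), with immediate early genes in red mainly above it and mitosis genes in blue at the upper right.

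**Figure D5:**
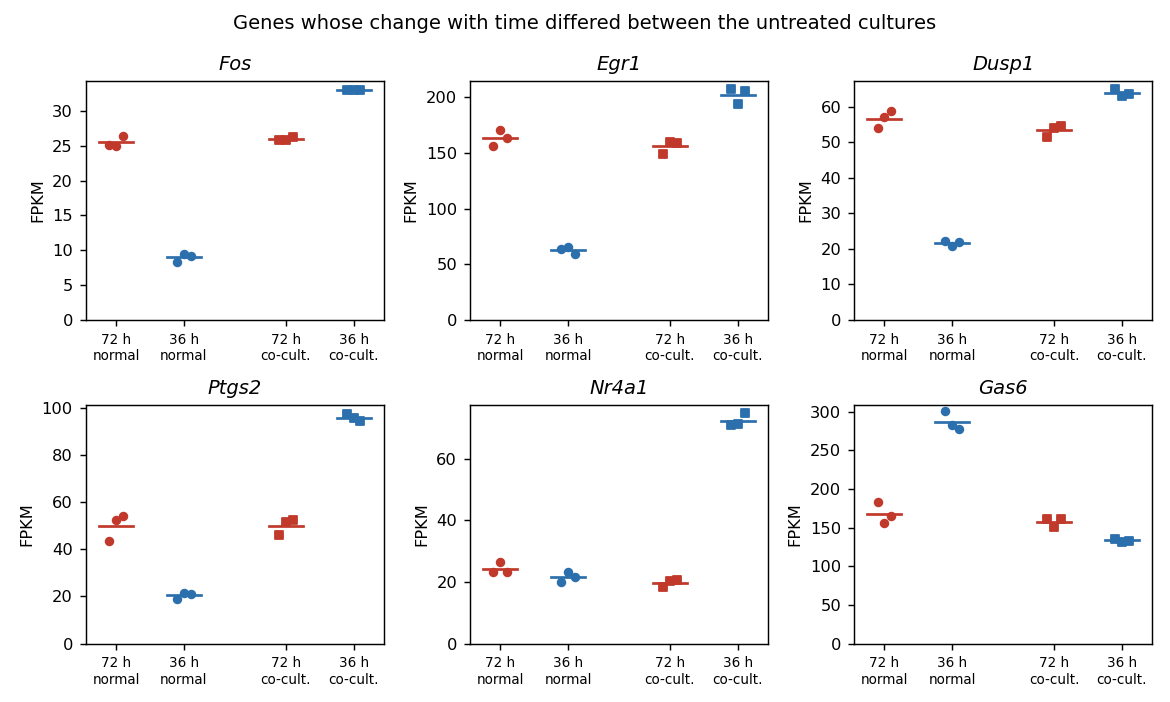
FPKM of 6 genes in each library of untreated normal culture (circles) and co-culture (squares) at 72 h (red) and 36 h (blue), with lines for means of 3. Fos, Egr1, Dusp1 and Ptgs2 are lowest in normal culture at 36 h, Nr4a1 is highest in co-culture at 36 h, and Gas6 is highest in normal culture at 36 h.

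The 6 genes with the largest negative differences under the naming rule were Sfrp2, Egfl6, Agtr2, Gas6, Dpt and Gfra1. Sfrp2, a WNT antagonist, was at 48.1, 36.1 and 42.5 FPKM at 72 h and 110.0, 108 and 108 FPKM at 36 h in co-culture, which gave a difference of -1.39. Gas6, a ligand of the receptors Tyro3, Axl and Mertk, was at 183, 157 and 165 FPKM at 72 h and 300.5, 283 and 278 FPKM at 36 h in normal culture, and 161, 150.3 and 161 FPKM and 135, 132 and 133 FPKM in co-culture (difference -1.00 ± 0.08 (SE), limma adjusted p = 7.94e-08). It fell in normal culture and rose in co-culture. Egfl6, a secreted EGF-repeat protein, Agtr2, an angiotensin II receptor, Dpt (dermatopontin) and Gfra1, a receptor of GDNF, fell in both cultures, further in normal culture by -1.30, -1.23, -1.00 and -0.98. Igfbp3 and Igf1 had differences of -0.92 and -0.83, Cxcl12 -0.85 and the calcification inhibitor Mgp -0.83. Marker lists moved with this difference: 4 of 17 tested skeletal muscle genes, among them Mylpf (-0.77), and 5 of 16 dermal fibroblast genes, among them Dpt, had a more negative change in normal culture, 1 further fibroblast gene a more positive one, and their part in the difference was not tested. These counts depended on the libraries used: 2 to 9 muscle genes and 3 to 8 fibroblast genes were more negative under the alternatives.

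In IL-1β-treated normal culture the interval looked different. There 69.1% of genes changed, 4524 higher (37.1%) and 3892 lower (32.0%), and the changes correlated with those of untreated normal culture at a Pearson r of 0.606. Of the 568 genes with a 2-fold change in untreated culture, 467 were called in the same direction and 23 in the opposite one under IL-1β. The difference passed for 5527 genes (45.4%), with 2636 more positive in untreated culture (21.6%) and 2891 more negative (23.7%). On TPM the balance turned, with 2937 more positive and 2366 more negative. Division genes rose in both, but mostly less without IL-1β: Mcm5 changed by 1.16 without and 2.53 with IL-1β, and Cdc20 by 1.25 and 2.18. Of 55 mitosis genes 43 had a more negative change without IL-1β and 1 a more positive one. Among 43 replication genes these counts were 31 and 0. Hypoxia-induced genes did not share a direction, with 20 of 24 lower and 2 higher in untreated culture, against 4 lower and 14 higher under IL-1β, and 19 of 24 had a more negative change without IL-1β. Some of the large falls of untreated culture were small or absent under IL-1β: Lcn2 changed by -5.63 without IL-1β and -0.47 with it, Mmp3 by -5.74 and -0.99, and Il6 by -2.99 and 0.15, the last not called. Others were nearly as deep with IL-1β as without it, Egfl6 at -2.70 without and -2.60 with it and Igf1 at -1.82 and -1.67, and 16 of 17 skeletal muscle genes also fell with it (median -1.18). By contrast Klk10 and Nqo1, up by 2.85 and 2.25 in untreated culture, changed by 0.13 and 0.09 under IL-1β, neither called. Their levels there differed. Nqo1 under IL-1β was at 201, 182 and 193 FPKM at 72 h and 177, 179 and 184 FPKM at 36 h. All of these lie above its untreated libraries of 72 h. Klk10 under IL-1β stayed below 1 FPKM in each library.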

How the data were processed

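Messenger RNA was captured from total RNA with oligo(dT) beads and sequenced, per the labels' protocols. The authors deposited 1 table of FPKM values for 24 libraries, aligned to GRCm38 per the submitters' processing notes. Not given in the sources used here are the aligner, the counting tool, the annotation, the handling of strand and the read numbers; depth is thus unknown.

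Values were analysed as log2(FPKM + 1) with limma 3.58.1 in R 4.3.3. Of 17094 genes, 12178 with at least 1 FPKM in at least 3 libraries were tested, in a trended fit of the means of 8 groups to all 24 libraries (16 residual degrees of freedom), with Benjamini-Hochberg adjustment over all tested genes and a threshold of 0.05. The code of the fit was run on simulated data. There the libraries were independent, each gene had the same spread in all groups and few genes changed. That run therefore checks the code and not the p-values of these data. Differences between time changes were contrasts of the same fit. Alternatives were another pseudocount, filter or scaling, the compared groups only, a replicate block, and each library left out.

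Genes, the rule for naming them and the 65 gene lists were chosen with earlier results of these data known. Named genes were 20 core genes, up to 10 each way by log2 change (mean of at least 5 FPKM), the largest changes in FPKM, the most expressed, leading members of each list and up to 6 each way for each difference; some further list members were named after their values were seen. Promoters came from RefSeq (GRCm38.p6) and gene positions from GENCODE vM21. Figures used matplotlib 3.10.9 in Python 3.11. No column was left out, and no 2 libraries were identical.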

Additional observations from a re-analysis of the deposited data

Results flagged for a closer look

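The change at 72 h against 36 h in untreated normal culture differed from that in untreated co-culture for 605 genes, 269 of them in the positive direction, by the test of the difference itself in limma with Benjamini-Hochberg adjusted p under 0.05. The largest positive differences on the log2(FPKM + 1) scale, normal culture minus co-culture, were 2.17 for Ptgs2, 1.98 for Nr4a1, 1.75 for Fos, 1.74 for Egr1, 1.67 for Btg2 and 1.60 for Dusp1. Btg2, an antiproliferative target of p53 and of growth signals, was at 39.4, 41.4 and 39.3 FPKM at 72 h and 14.6, 15.4 and 14.7 FPKM at 36 h in normal culture, and at 37.5, 38.5 and 38.5 FPKM and 47.3, 47.3 and 47.8 FPKM in co-culture. The largest negative differences were -1.39 for Sfrp2, -1.30 for Egfl6, -1.23 for Agtr2, -1.00 for Gas6, -1.00 for Dpt and -0.98 for Gfra1.

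Against IL-1β-treated normal culture the same test passed for 5527 genes, 2636 in the positive and 2891 in the negative direction, untreated minus treated. The largest positive differences were 2.72 for Klk10, 2.68 for Gsta4, 2.40 for Perp, 2.29 for Ano3, 2.18 for Ltc4s and 2.16 for Nqo1. Gsta4, a glutathione transferase for lipid peroxidation products, changed by 1.35 in untreated culture and -1.33 under IL-1β, and Ano3, a membrane protein of the anoctamin family, by 1.08 and -1.20. Ltc4s, which makes leukotriene C4, was not called in untreated culture, at 0.01, and fell under IL-1β (-2.16). The largest negative differences were -5.15 for Lcn2, -4.75 for Mmp3, -4.14 for Mmp13, -4.11 for Saa3, -3.73 for Steap4 and -3.14 for Il6.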

How the results depend on the processing

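The main result, 4027 genes higher and 3085 lower at 72 h than at 36 h in untreated normal culture, stayed within 1.5 times of these counts under every alternative: 3991 and 3071 with log2(FPKM + 0.1), 4285 and 3580 with no filter, 3376 and 2216 with a filter at 5 FPKM, 3952 and 2972 on TPM, 3461 and 3515 with median-of-ratios scaling, and 4410 and 3337 when only the 6 compared libraries were fitted. The excess of higher genes was not kept with median-of-ratios scaling: 49.6% of called genes were higher, against 56.6% in the main fit. Without single libraries 3620 to 3745 genes were higher and 2733 to 2940 lower.

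Samples with the same replicate number did not deviate together (correlations of 0.00922, 0.061 and 0.0119 for the 3 numbers), and 1 of 3 libraries of 72 h correlated best with its own number at 36 h. With the replicate number as a block in a fit of the compared groups, 4387 genes were higher and 3312 lower. For the difference from co-culture the replicate block gave 807 and 1134 genes, and the same libraries without a block gave 861 and 1194, against 605 genes in both directions together in the fit of all 24 libraries. The SD of residuals was 0.0942 in the 72 h and 0.091 in the 36 h libraries of untreated normal culture, and up to 0.167 in a group with IL-1β that enters the fit of all libraries. Without single libraries that difference passed for 188 to 254 genes in the positive and 199 to 306 in the negative direction. Left out in turn, replicates 2 and 3 of 72 h gave 209 and 216 genes in the negative direction and replicate 1 of 36 h 205 in normal culture, and replicate 3 of 72 h gave 199 and replicates 2 and 3 of 36 h 223 and 215 in co-culture. The cause was not tested. For the difference from IL-1β-treated culture the counts stayed within 1.5 times, with more genes in the positive than in the negative direction on TPM alone (2937 and 2366).

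Of 255 changes and differences of named genes, 247 kept their side of the threshold under every alternative. The 8 others were Eef1a1, Fth1, Il11 and Nr4a1, each of which lost its call under at least 1 alternative, and Hapln1, Sox9, Pttg1 and Il1a, which gained one (Il1a as lower, with log2(FPKM + 0.1)). No named gene changed direction while called, and direction was not compared for genes called in neither fit. Counts of a few members depended on settings: ribosomal protein genes were called lower in 11 to 42 of 64, and single members of the metalloproteinase, HIF, NRF2, IGF and NF-kB lists gained or lost a call.

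The FPKM values give no read numbers, so counting error is unknown, and FPKM are shares of a library, so a change in a few abundant genes moves all others. With 3 libraries a group, from cultures whose independence is not stated, SE and p cover only the spread within groups, pooled over all 24 libraries. Bulk RNA does not separate cell types.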

Other observations

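Metabolic genes moved by small steps at 72 h against 36 h in untreated normal culture, where 58.4% of all tested genes were called. Of 14 tested fatty acid synthesis genes 9 rose and 1 fell (median 0.25): Fasn, the fatty acid synthase, was at 23.6, 24.8 and 25.1 FPKM at 72 h and 17.7, 17.4 and 17.4 FPKM at 36 h, and the desaturases Scd2 and Fads2 rose by 0.61 and 0.59. Of 21 genes of fatty acid oxidation and PPAR targets 5 rose and 11 fell. Cpt1a, which admits fatty acids to mitochondria, fell (change -0.44). Nuclear-encoded respiratory chain genes rose in 19 of 37 cases and fell in 0, from small steps up to 0.79 for cytochrome c (Cycs). Chaperones of the endoplasmic reticulum rose in 14 of 22 cases and fell in 3; Hspa5 (BiP), its main chaperone, was at 673, 642 and 642 FPKM at 72 h and 539, 536 and 536 FPKM at 36 h, whereas Xbp1, a transcription factor of the unfolded protein response, fell (change -0.21). Among 27 ATF4 target and serine synthesis genes 11 fell, including Trib3 (-0.52), and the 5 that rose included the serine synthesis enzymes Phgdh, Psat1 and Psph (0.54, 0.47 and 0.52).

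Iron genes went both ways. The transferrin receptor Tfrc was at 24.2, 25.9 and 26.5 FPKM at 72 h and 11.9, 12.4 and 13 FPKM at 36 h, while the exporter Slc40a1 (ferroportin) was at 9.05, 7.04 and 8.41 FPKM and 16.5, 16.7 and 16.1 FPKM and the ferritin receptor Scara5 changed by -2.34. Of 16 tested iron genes 9 fell and 3 rose. Nerve and glia markers were low and moved apart: Ngfr, the low-affinity neurotrophin receptor, was at 4.31, 4.31 and 4.07 FPKM at 72 h and 16.9, 17.1 and 16.9 FPKM at 36 h, and Sox10, a transcription factor of Schwann cells, changed by -1.20, whereas Fabp7, a fatty acid binding protein of glia, was at 11.2, 10.5 and 10.9 FPKM at 72 h and 0.87, 1.27 and 1.4 FPKM at 36 h. Circadian genes gave 3 higher and 8 lower of 19 tested; the samples were taken 36 h apart, which is not a whole number of days, so time of day and culture time cannot be told apart. Of 16 YAP and SRF targets 12 rose and 1 fell. The CArG box, the motif of SRF, stood in 3 of 11 promoter windows of these targets and 2 of 17 of the contractile genes, against 1.29% of all windows. It also stood in 3 of 11 windows of glutathione S-transferase genes. The motif of MEF2 stood in 0 of 12 windows of skeletal muscle genes, against 0.323% of all.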
